A study of Drosophila melanogaster with 48 samples.

Results

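The cytosolic ribosomal protein genes of Drosophila melanogaster were taken as the protein-coding genes whose symbol begins with RpL or RpS followed by a digit, or with RpLP, in the RefSeq gene table of Release 6 (dm6). The rule gave 92 of 13946 protein-coding genes, of which 54 encode large-subunit (RpL, RpLP) and 38 small-subunit (RpS) proteins by their symbols. The rule uses gene symbols and no measured value, though these genes were picked for description with earlier results of these data known. Of the 92 genes, 16 form 8 pairs of paralogs with an a and a b suffix, 5 carry the ending -like in their symbol, and 71 are neither.

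A eukaryotic ribosome holds about the same number of copies of each of its proteins, so the genes for them are expressed together and strongly in growing cells. In Drosophila most of these genes are needed in every cell, and loss of a copy of many of them gives the Minute phenotype of slow growth and short bristles. Some proteins have a second gene: RpS5b and RpS19b are expressed mainly in the germline, and RpS10a and RpL22-like mainly in the testis. RpL24-like and RpLP0-like are related in sequence to ribosomal proteins but, as in yeast, act in ribosome assembly.

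Open chromatin was mapped by ATAC-seq, where a transposase inserts adapters into accessible DNA, in S2 cells, a cultured Drosophila line with the character of blood cells (hemocytes). All groups were harvested at 48 h, counted from the addition of CuSO4 where it was given, with 2 libraries for each of 24 groups. In the main experiments, lines with inducible full-length Grainyhead (S2-Grh, 100 uM CuSO4), Zelda (S2-Zld, 1000 uM) or Twist (S2-Twi, 40 uM) and lines with the DNA-binding domain alone (S2-Grh-DBD, 20 uM; S2-Zld-DBD, 100 uM) stood beside wild-type cells (S2-WT) given the same dose. The titrations used S2-Grh at 0, 25, 100 and 400 uM, S2-Zld at 0, 500, 1000 and 1500 uM and S2-HA-Twi, which carries a tagged Twist, at 0, 10, 40 and 160 uM, while S2-Grh-DBD at 80 uM and S2-Zld-DBD at 400 uM had no wild-type libraries of their own. Grh is known for epidermal genes, Zld for the first zygotic genes and Twi for mesoderm.

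The values come from 10 peak lists deposited by the authors. Each of the 5 main lists pools wild-type and factor libraries, and each full-length titration list pools all doses, per the labels. The labels do not say which libraries make up the 2 DBD titration lists. A gene was counted as present in a list when at least 1 summit, the position of the highest signal in a peak, lay in the gene body or within 500 bp of it. No value belongs to 1 library, so there is no replicate error, the depth is unknown, and no effect of a factor or a dose can be read from a list. The lists were compared by counts, and no test was made.

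The lists held between 32025 summits (HA-Twi titration) and 97931 (Twi). MtnA, a copper-inducible metallothionein gene, and grh, zld and twi each had a summit in all 10 lists. Of 9 hemocyte marker genes, 7 had a summit in all 10 lists, and so did 4 of 8 marker genes of other tissues, against 60.8% of all protein-coding genes. Counting only summits whose nearest gene end was the gene's own, the counts were 6 and 3, against 50.8% of all genes. MtnA had such a summit in 8 lists. Presence in a list is not a measure of expression.

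Nearly all ribosomal protein genes were present in every list. A summit in all 10 lists was found for 87 of 92 genes (94.6%), against 60.8% of all protein-coding genes. Ribosomal protein genes are short, with a median length of 1315 bp against 2161 bp over all genes. Among the 10208 protein-coding genes that lie within their length range of 304 to 4677 bp, 53.8% were present in all 10 lists. The 5 exceptions were RpL10Aa, RpL22-like, RpL37-2, RpS5b and RpS10a. These counts depend on the flanks of the gene: with the gene body alone, 33 members (35.9%) had a summit in all 10 lists, against 32.9% of all genes and 20.8% of genes of the same length range.

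The counts differed little from list to list, while those of all genes followed the length of the list. With 87 to 90 of 92 members present, the count had little room to move. Translation and ribosome assembly genes were likewise at 39 of 39 in each list, and mitochondrial ribosomal protein genes at 69 to 73 of 73. The Grh list held 89 members, against 76.7% of all genes, and the Grh titration list 87, against 69.6%. The Zld list held 88 members, against 71.4% of all genes, and the Zld titration list 87, against 66.6%. The Twi list, the longest, held 90 members, against 84.5% of all genes, and the HA-Twi titration list 87, against 65.3%. Each of the 4 lists of a DNA-binding domain held 88 members. The shares of all genes there were 68.8% in the Grh DBD list, 67.4% in the Grh DBD titration list, 71.5% in the Zld DBD list and 68.1% in the Zld DBD titration list. The titration lists of the full-length factors lacked exactly the same 5 genes named above.

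**Figure D1:**
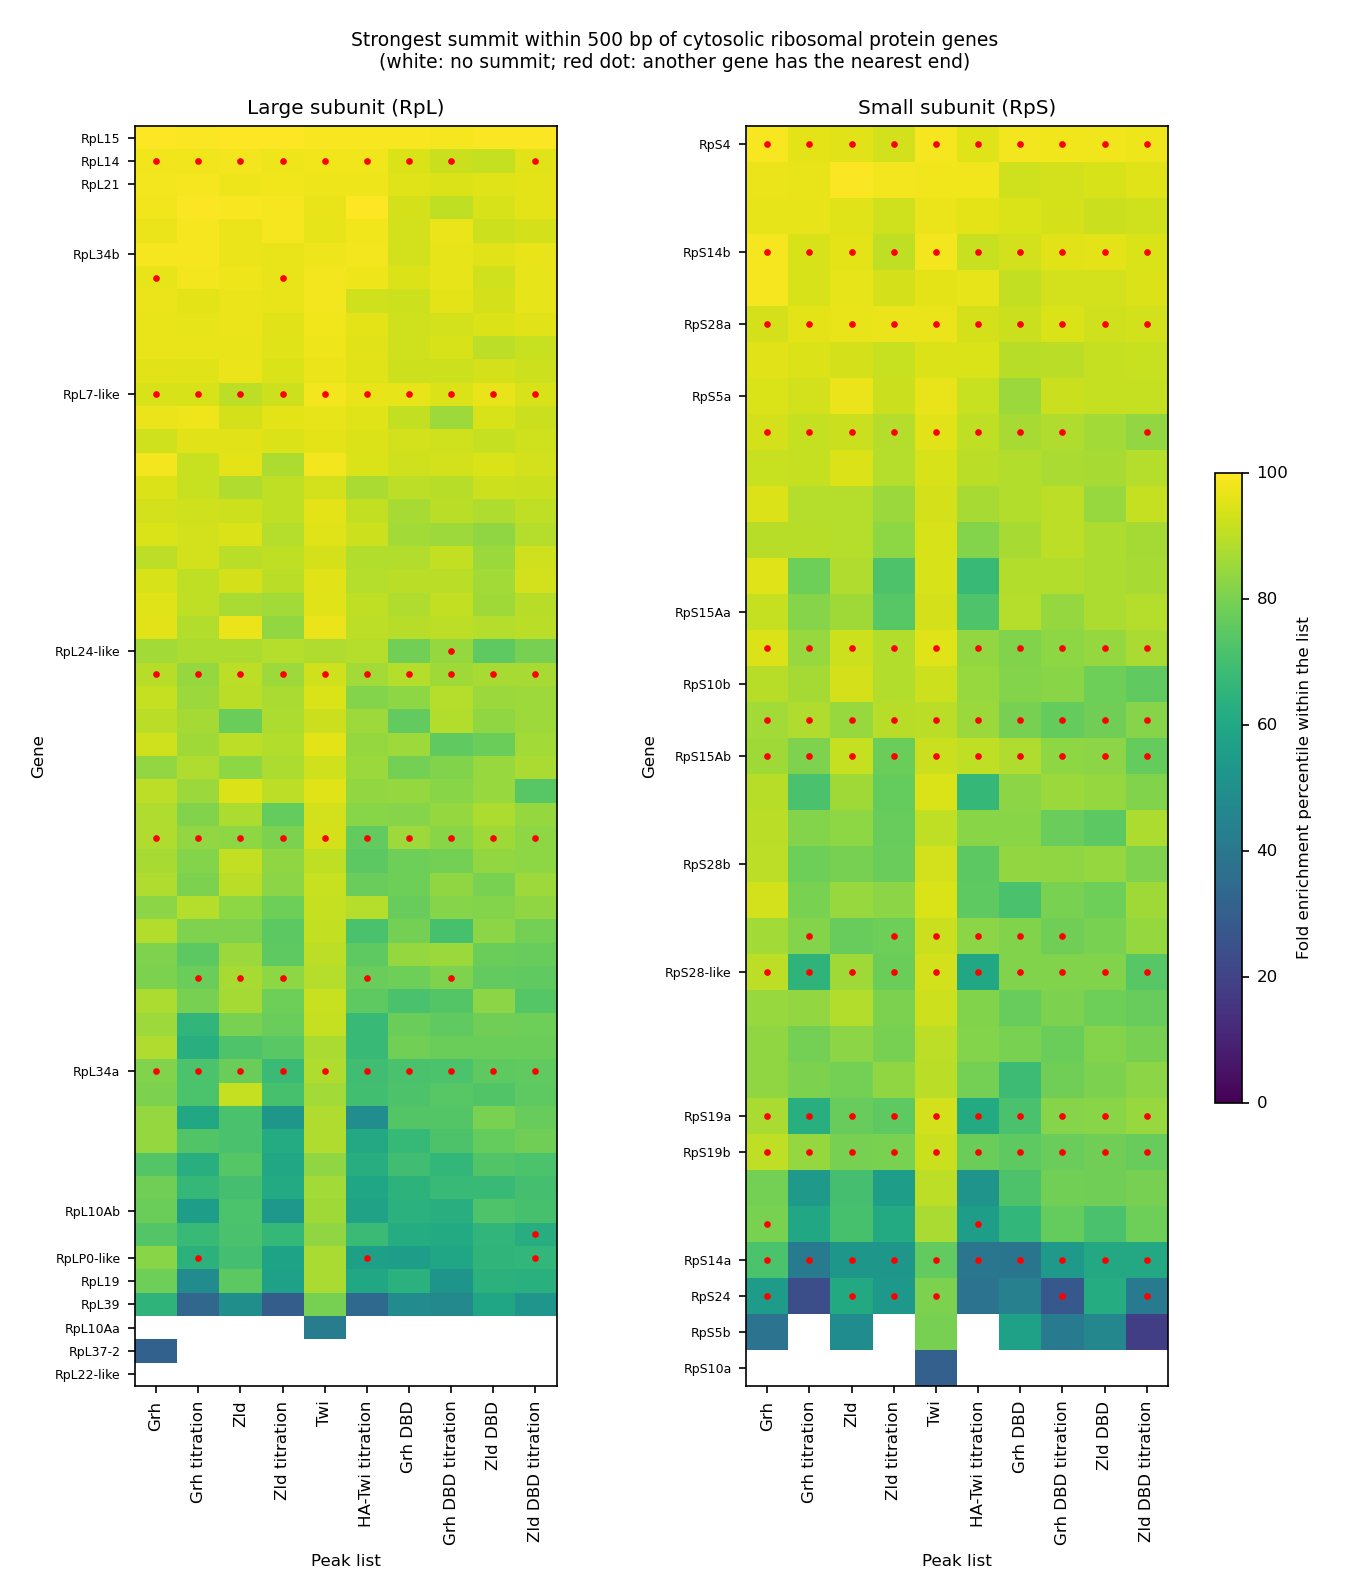
Each row is 1 of 89 cytosolic ribosomal protein genes (left, large subunit; right, small subunit; 3 of the 92 are not shown because they are not reported here) and each column 1 of the 10 peak lists; the colour gives the percentile, by the authors' fold enrichment, of the gene's strongest summit among all summits of that list, and rows run from high to low, with labels for some genes. White cells mark the lists without a summit, which fall to the 5 genes at the foot of the panels, and red dots mark a strongest summit whose nearest gene end belongs to another gene.

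Large- and small-subunit genes did not stand apart. All 10 lists held 51 of 54 RpL genes (94.4%) and 36 of 38 RpS genes (94.7%). All 14 members on the X chromosome and 73 of 78 autosomal members (93.6%) were present in all 10 lists, against 60.8% of all protein-coding genes. Shares over all X and all autosomal genes apart were not counted.

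Members carried few summits each, but more per length than the median gene. The median was 2 to 3 summits per gene by list, against 1 to 3 over all genes. Per kilobase of gene and flank, the median was 0.856 to 1.40 summits, against 0.339 to 0.853 over all genes. Genes of the same length range stood at 0.363 to 0.843. Mitochondrial ribosomal protein genes had a like density of 0.926 to 1.24. The gene with the most was RpL5, a 5S RNA-binding protein gene of 4606 bp, with 5 to 13 summits by list, followed by RpL37-1 with 5 to 9 and RpS26 and RpS9 with 4 to 7 each. RpL3 had 13 summits in the Twi list and 2 in the Grh DBD titration list.

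The window around a member often held another gene. At least 1 other protein-coding gene reached into the window of 72 of the 92 members. Each summit was therefore assigned to the gene with the nearest end, where either end counts because the gene table was used without strand. In all 10 lists, 78 members (84.8%) had a summit nearest to an end of their own, against 50.8% of all genes and 42.7% of genes of the same length range. The Grh list held 85 members by this count, against 69.7% of all genes, and the Grh titration list 80, against 62.1%. The Zld list held 84, against 65.1% of all genes, and the Zld titration list 81, against 59.3%. The Twi list held 87, against 79.4% of all genes, and the HA-Twi titration list 81, against 57.9%. In these 6 lists of the full-length factors, the count of members was 80 or more. The Grh DBD list held 83, against 60.7% of all genes, and its titration list 82, against 59.5%. The Zld DBD list held 84, against 63.5% of all genes, and its titration list 81, against 60.3%. Of all summits in the windows of members, 69.3% to 74.0% by list had the member's own end as the nearest. The strongest summit of a member was nearest to its own end in all 10 lists for 61 members, nearest to another gene in all 10 lists for 16, and changed between lists for 10. RpS4, for example, had its strongest summit 274 to 295 bp from an end of Syx13.

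Other gene families, taken by symbol or from a list of names, were counted in the same way. A list of 39 genes held translation factors, ribosome assembly genes and some regulators, such as Myc, Dref, M1BP, Trf2, Thor and S6k. All 39 were present in all 10 lists, and 36 of them (92.3%) by a summit nearest to their own end. These genes are longer, with a median of 3083 bp. Of 73 mitochondrial ribosomal protein genes, 69 (94.5%) were present in all 10 lists, and 54 (74.0%) by their own end. Of 48 proteasome subunit genes, taken by symbol with any paralogs kept, 34 (70.8%) were present in all 10 lists. By their own end 27 (56.3%) were present, and 7 had no summit in any list. The 71 ribosomal protein genes outside the pairs and the -like group stood at 70 (98.6%) and 68 (95.8%). No paralogs were left out of the other families, so these shares are not like for like. The differences between these families were not tested.

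**Figure D2:**
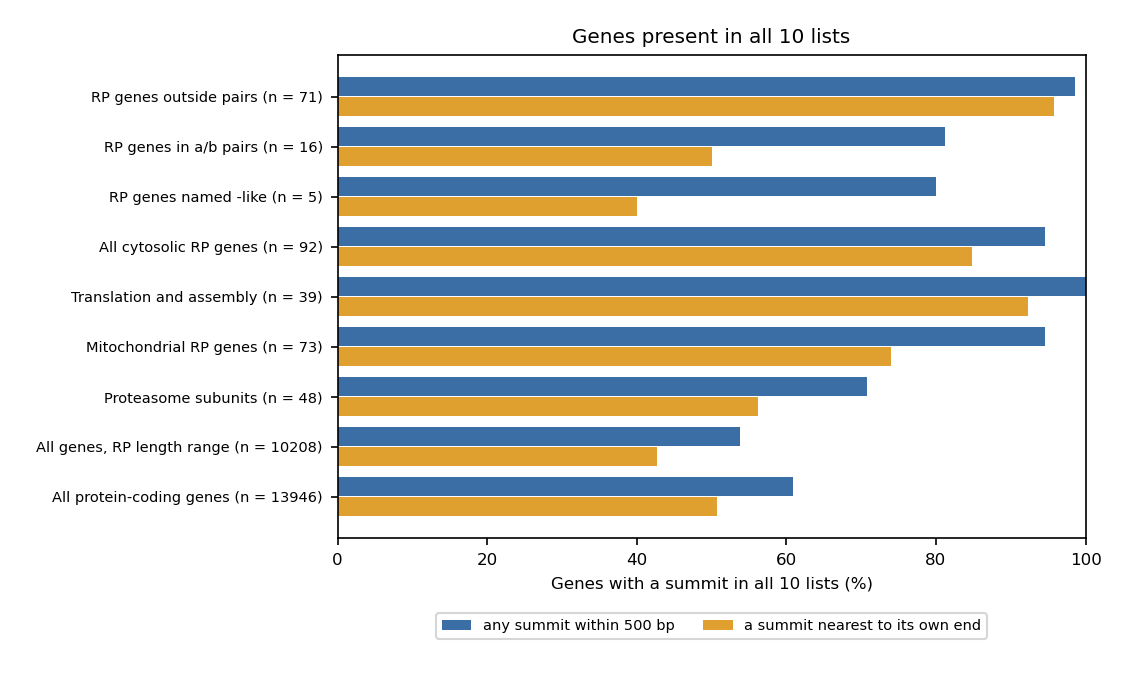
Bars give the percentage of genes with a summit in all 10 lists, for any summit within 500 bp of the gene (blue) and for a summit whose nearest gene end is the gene's own (orange); n is the number of genes and RP stands for ribosomal protein. The 71 members outside the pairs stand at 98.6% and 95.8%, the 16 members of pairs at 81.3% and 8 of 16 genes, and all protein-coding genes at 60.8% and 50.8%.

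Where members had summits of their own, the strongest of them mostly lay close to an end of the gene. The strongest own-end summit lay within 100 bp of an end for 80.5% to 86.9% of members by list, against 43.9% to 55.0% of all genes. Genes of the same length range stood at 49.6% to 66.5%. The median distance was 28 to 37 bp, against 39 to 103 bp for genes of that length and 73 to 147 bp over all genes. The summit lay inside the gene for 29.6% to 35.0% of members, against 43.7% to 51.3% of all genes and 37.5% to 47.0% of genes of the same length range. These differences were not tested.

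Of 10 lists, 8 give summits and the DBD titration lists give windows of 200 bp, whose midpoint was used. In all 8 lists with summits, 78 members had an own-end summit. Its position had a range over the 8 lists of 14 bp in the median gene and of at most 50 bp in 69 genes (88.5%). The same range had a median of 16 bp over genes of the same length range, with 78.1% at 50 bp or less, and of 20 bp over all genes, with 67.7%. A steady position was therefore common to most genes with such a summit. It was near the same end of the gene in all 8 lists for 76 members (97.4%), against 91.1% of all genes and 94.5% of genes of the same length range. The exceptions were RpL4 and RpL17, in which the strongest summit was at the lower end by coordinate in 5 and 6 lists and at the higher end in 3 and 2. For RpL15 (3L:27267255-27268445, lower end) the summit lay 31 to 43 bp outside the gene in these lists.

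**Figure D3:**
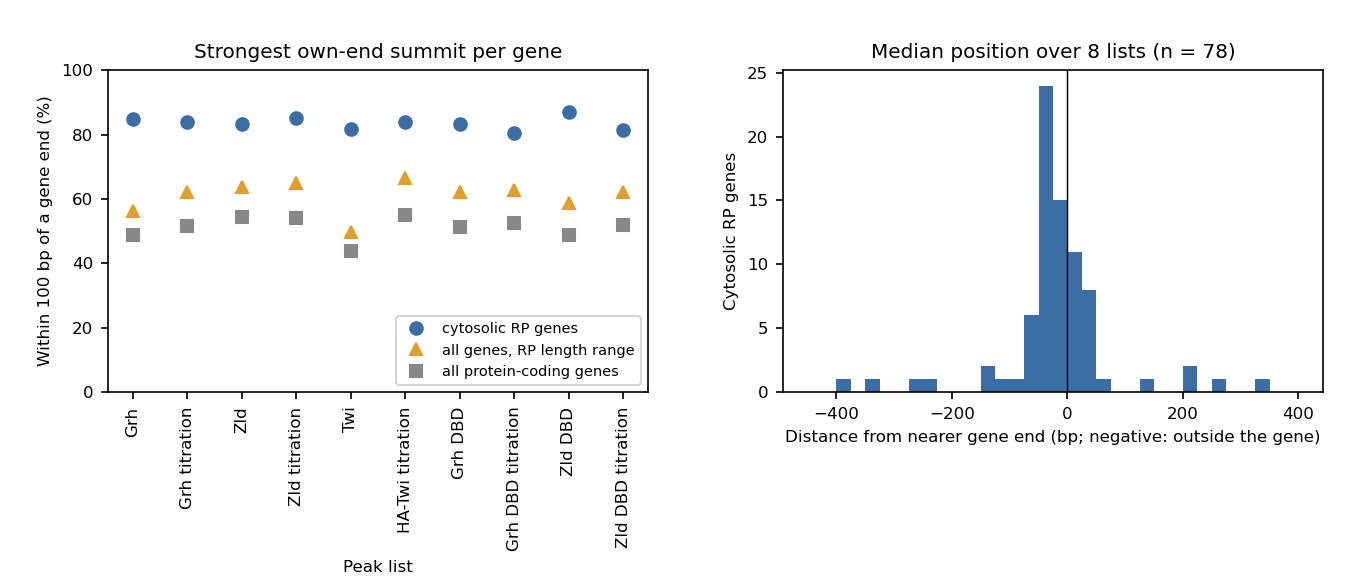
Left, the percentage of genes whose strongest own-end summit lies within 100 bp of a gene end, in each of the 10 lists, for cytosolic ribosomal protein (RP) genes (circles), genes of the same length range (triangles) and all protein-coding genes (squares). Right, a histogram of the median distance over 8 lists from the nearer gene end, in bp and negative outside the gene, for the 78 members with such a summit in all 8, of which 66 lie within 100 bp of the end and 53 outside the gene.

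The strength of a peak was read only within its own list, as the percentile of the authors' fold enrichment among all summits of that list. The strongest summit of the members present had a median percentile of 83.8 to 93.4 by list, against 80.7 to 90.0 over all genes with a summit. Longer genes hold more summits from which the strongest is taken, and genes of the members' length range stood at 76.8 to 87.4. In each of the 10 lists the members' median was above both of these. The longer translation and ribosome assembly genes stood at 85.6 to 93.8, above the members in each list. Proteasome subunit genes stood at 81.0 to 89.4, above the members in some lists, and mitochondrial ribosomal protein genes at 77.2 to 90.4. The differences were not tested. Percentiles were highest in the Twi list, which holds the most weak summits. The order of the members was much alike in all lists: over the 87 genes present in all 10, Spearman's rho between lists was 0.805 to 0.970 in 45 pairs of lists, with a median of 0.883. Over all 8485 genes present in all 10 lists it was 0.794 to 0.964. The lists share the cell line and the gene windows, and genes are not independent replicates.

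RpL15, a large-subunit protein gene in the heterochromatin of chromosome 3, had the highest median percentile. Its strongest summit stood at the 98.5th to the 99.9th percentile by list, with a fold enrichment of 21.6 in the Grh list and 31.9 in the Grh titration list. The fold enrichment was 26.6 in the Zld list, 32.1 in the Zld titration list, 16.5 in the Twi list and 33.4 in the HA-Twi titration list. In the Grh DBD list it was 23.1 and in its titration list 20.3, and in the Zld DBD list 23.0 and in its titration list 23.4. Among the next highest, RpS4 had 97.6 (93.0 to 99.1) and RpL14 had 97.6 (91.2 to 98.2). In both, the strongest summit was nearest to a neighbour, in RpS4 to Syx13 in all 10 lists and in RpL14 to Nelf-E in 9, at 31 to 56 bp. RpL21 had 97.4 (94.6 to 98.6), at an end of its own. The range of RpL15 lay above that of RpL14, and the other ranges of these 4 genes overlap.

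The lowest median percentiles among members present in all lists belonged to RpS24 at 48.4 (24.0 to 80.2), RpL39 at 49.1 (29.6 to 79.5) and RpS14a at 53.3 (39.0 to 75.9). RpL19 stood at 63.7 (48.1 to 87.2) and RpLP0-like at 64.7 (55.7 to 87.4). RpL39 is the neighbour of RpL12 on chromosome arm 2R, and their annotated ends overlap by a few bases. It had 1 summit in each list, 17 to 23 bp outside the gene, with a fold enrichment of 2.69 to 3.56. The strongest summit of RpS24 was nearest to its own end in 4 lists and to an end of CG3732 in 6. That of RpS14a was nearest to an end of a neighbour, Dhdds or RpS14b, in all 10 lists. Its own summit, found in 8 lists, had a median percentile of 30.7.

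Of the 5 members missing from at least 1 list, RpL22-like (2R:23246610-23247893) had no summit in any list. It encodes a paralog of RpL22, and RpL22 itself had 2 to 4 summits by list with a median percentile of 93.6. RpL37-2 (2R:23100057-23100478) had 1 summit, in the Grh list only, 384 bp outside the gene with a fold enrichment of 1.85 and a −log10 q of 2.91. Its counterpart RpL37-1 was present in all 10 lists with a median percentile of 95.6. RpL10Aa and RpS10a each had 1 summit, in the Twi list only, with a fold enrichment of 1.63 and 1.52. That of RpL10Aa lay 336 bp outside the gene, and that of RpS10a inside the gene, 223 bp from the nearer end. These 3 single summits stood at the 31.2nd, the 42.4th and the 30.6th percentile of their lists. RpS5b had a summit in 7 lists, 45 to 66 bp outside the gene, and in none of the 3 full-length titration lists. Its fold enrichment was 1.96 in the Grh list, 3.45 in the Zld list and 2.89 in the Twi list. In the Grh DBD list it was 3.46, in its titration list 2.70, in the Zld DBD list 2.36 and in its titration list 1.95.

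In each of the 8 pairs, exactly 1 member had a summit nearest to its own end in all 10 lists. These were RpL10Ab, RpL34b, RpS5a, RpS10b, RpS14b, RpS15Aa, RpS19a and RpS28b. As a share, 8 of 16 pair members (50%) had such a summit in all 10 lists. This was near the 50.8% of all genes, with 42.7% for genes of the same length range. The partners had such a summit in fewer lists: RpS15Ab in 0, RpL10Aa and RpS10a in 1 each, RpS28a in 2, RpL34a in 3, RpS19b in 6, RpS5b in 7 and RpS14a in 8. Of the first set 6 genes lie on the X chromosome, and of the partners 1. The first set holds the longer gene in 7 of the 8 pairs, so its windows are larger. The b copy was the one in 5 pairs and the a copy in 3, so the suffix does not tell which copy it is.

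Counting any summit within 500 bp did not show most of this. By that count both members of 5 pairs were present in all 10 lists. For several partners the strongest summit was nearest to an end of another gene. Which of the 2 genes such a summit belongs to was not tested. RpS28a (3R:30022345-30022648) is the shortest member, at 304 bp, and had 3 to 5 summits by list with a median percentile of 93.9, above the 82.1 of RpS28b. Its strongest summit was always nearest to an end of Axn or Mgat2, which lie on either side of it. The 2 summits nearest to its own end, in the Grh and Zld lists, had fold enrichments of 1.76 and 2.25. RpL34a (3R:26058420-26059267) had its strongest summit 12 to 21 bp from an end of Trmt61 in all lists, at a median percentile of 73.5. RpL34b had its own at 97.0 (93.3 to 98.8), and the ranges do not overlap. RpS15Ab (2R:10821676-10822399) had its strongest summit 48 to 65 bp from an end of Lsm10 at a median percentile of 84.3, beside 86.7 for the own summit of RpS15Aa. RpS19b (3R:23932729-23933530) had its strongest summit 5 to 100 bp from an end of CG5854.

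In RpS19a and RpS14b the strongest summit was also nearest to an end of a neighbour. For RpS19a (X:16637894-16639249) it lay 3 to 48 bp from an end of Rok, at a median percentile of 79.2, and its own summit had a median percentile of 62.8 (50.2 to 89.0). For RpS14b (X:7934898-7935792) it lay 306 to 320 bp inside Ubr3 at a median percentile of 94.8, and its own summit had a median of 53.0 (35.6 to 75.9) with fold enrichments of 2.38 to 4.42. RpS14a (X:7933742-7934677) is the tandem neighbour of RpS14b, and its own summit, where listed, had a fold enrichment of 1.77 to 3.37. RpS14a and RpS14b encode the same protein and are nearly identical copies. The sources used here do not say how reads that map to both were treated, so the summits at this pair are uncertain.

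In 3 pairs the strongest summit of both members was nearest to their own ends, and the members stood apart. RpL10Ab had a median percentile of 67.4 (53.2 to 85.6) in 10 lists, while RpL10Aa was in 1 list at 42.4, by a summit 336 bp outside the gene. RpS10b had 85.5 (75.7 to 93.6) in 10 lists, while RpS10a, which lies inside tau, was in 1 list at 30.6. RpS5a had 91.9 (85.1 to 97.0) in 10 lists, while RpS5b had 46.2 (18.7 to 79.4) in 7. The ranges within these pairs do not overlap. The pairs were compared by description, and the difference was not tested.

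**Figure D4:**
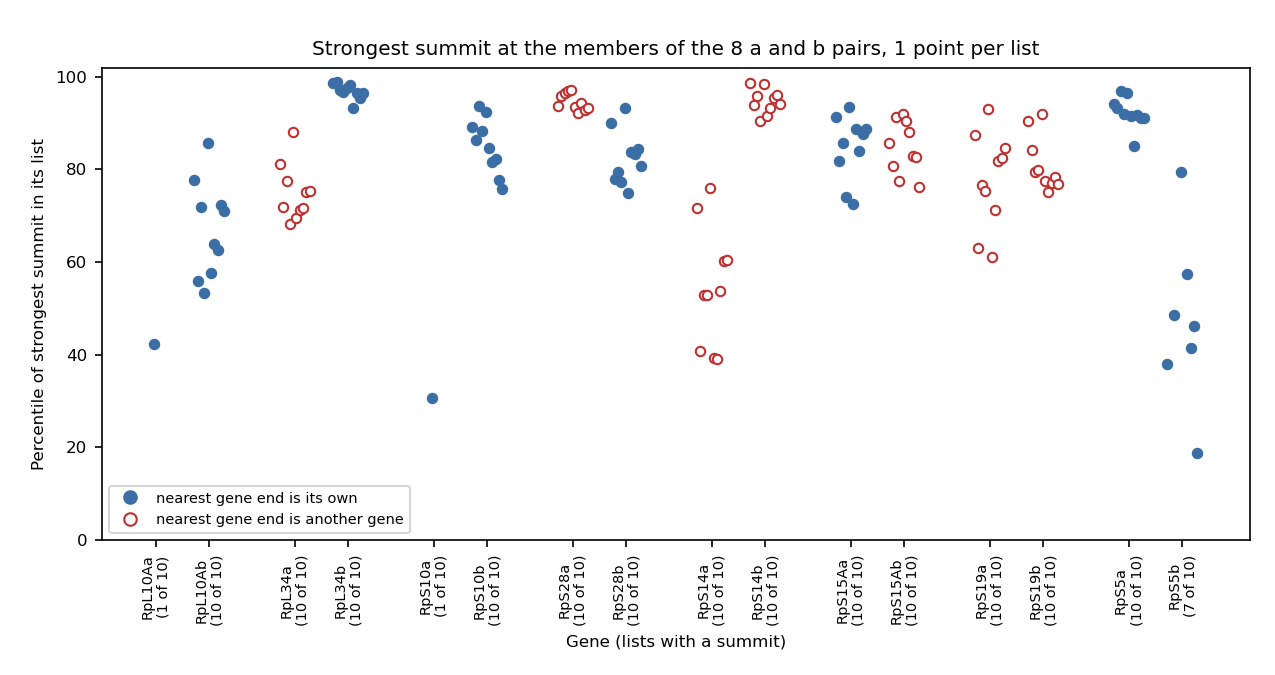
Each point is the strongest summit within 500 bp of a gene in 1 of the 10 lists, placed by its fold enrichment percentile within that list (0 to 100), for the 16 members of the 8 a and b pairs; the number of lists with a summit is given under each gene. Filled blue points are summits nearest to the gene's own end and open red points summits nearest to another gene, which make up all points of RpL34a, RpS14a, RpS14b, RpS15Ab, RpS19a, RpS19b and RpS28a.

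Of the 5 -like genes, RpL24-like was present by its own end in all 10 lists. Its strongest summit lay within 8 bp of that end in 9 lists, with a median percentile of 86.9, and in the Grh DBD titration list a summit 148 bp from an end of CG5276 was stronger. RpL7-like, related to a yeast assembly factor, also had an own-end summit in all 10 lists, but its strongest summit was 8 to 67 bp from an end of JhI-21, a median percentile of 94.5. RpLP0-like (2R:10098518-10099590) had a single summit per list between its own end and that of 14-3-3zeta, nearer to its own in 7 lists and to 14-3-3zeta in 3. RpS28-like (2L:9436804-9437227) had summits in all 10 lists, the strongest 35 to 75 bp from an end of numb, and none nearest to its own end. RpL22-like is described above.

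Regions found in both lists of 1 full-length factor but absent from the 4 lists of the other 2 were few at members and over all genes alike. The Grh list had 240 regions over members, of which 1 (0.417%) was of this kind, against 1.81% of its regions over all protein-coding genes. It lay in RpS29 (3R:9779227-9779339), with fold enrichments of 2.22 in the Grh list and 4.65 in its titration list. The Zld list had 247, of which 2 (0.810%) were of this kind, against 0.971% over all genes. They lay in RpL37A (2L:5071358-5071430; 1.96 and 2.19) and RpL32 (3R:30045904-30045964; 3.07 and 2.25), a gene often used as a reference in expression assays. The Twi list had 301, of which 2 (0.664%) were of this kind, against 0.443% over all genes. With counts of 1 or 2, nothing is read from these differences. They lay in RpS2 (2L:9897231-9897345; 1.75 and 2.61) and RpL6 (3R:31595955-31596016; 1.64 and 2.87). The 2 Twi regions were also in both Grh DBD lists, while those of Grh and Zld were in no list of a DNA-binding domain. Each of these 5 genes also had a summit in all 10 lists. Since the lists pool wild-type and factor libraries or all doses, dependence on the factor was not tested.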

How the data were processed

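Of 48 ATAC-seq libraries in 24 groups of 2, only the 10 deposited narrowPeak lists, in dm6, were used. The submitters' processing notes name Bowtie2, MACS2, featureCounts, DESeq2 and deepTools 3.5.1, without roles, settings or any shift of reads for the transposase. Each entry of a deposited list carries the authors' fold enrichment, a ratio to background, their −log10 q, whose smallest value is 1.30 in all lists, their score, which was not used, and a summit position. For the 200 bp windows of the 2 DBD titration lists, and for up to 9 entries of any other list, no summit is given and the midpoint was taken. Depth per sample is unknown, and no interval can be given.

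Genes came from the RefSeq table of Release 6, with start and end but no strand, exons or sequence. Summits within 500 bp of each protein-coding gene were counted, and the gene with the nearest end was recorded, ties included. Percentiles rank fold enrichment within a list. Regions are all entries that share a peak number. The counting gave 0 differences from direct comparison over 2000 genes with simulated summits. The translation list held 41 names, of which 40 matched (2 by synonym) as 39 genes, and nos of the marker lists was not matched. Members and lists were chosen with earlier results of these data known.

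Named were all pair members, the -like genes, members absent from at least 1 list, the 5 highest and 5 lowest by median percentile, genes with regions of 1 factor, and the check genes. RpL5, RpL37-1, RpL3, RpS26, RpS9, RpL4, RpL17, RpL12 and RpL22 were named after their values were seen. Some genes that these rules name are not reported here. Promoter motifs, protein identity and distance to the annotated start need sequence or strand and were not run. Other settings were other windows, peak thresholds, list lengths, overlaps, nearest ends and a shorter member list. The length range, the summits per kilobase, and the shares over all genes for summit positions and regions of 1 factor were added after the data were seen. Tables were made with pandas 2.3.3 and numpy 2.4.6, ranks with scipy 1.17.1 and figures with matplotlib 3.10.9, all under Python 3.11.15.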

Additional observations from a re-analysis of the deposited data

How the results depend on the processing

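No paired analysis was possible because each list pools its libraries and no result comes from a test; for the same reason no replicate could be left out. The number of members present per list (87 to 90) became 88 to 90 with 1000 bp on each side, 86 to 88 at a −log10 q of at least 10, 87 to 88 with 25397 regions per list and 86 to 90 with an overlap of 50% of the region. Members in all 10 lists numbered 86 to 88 in these settings, 87 with an overlap of 1 bp and 78 by the nearest end. In each of these, every count was within 1.5 times that reported. The gene body alone gave far fewer. Members in all 10 lists fell to 33 of 92 (35.9%), against 32.9% of all genes; the own summits of 53 of 78 members lie outside the annotated gene. Members present numbered 58 (Grh), 53 (Grh titration), 56 (Zld), 57 (Zld titration), 49 (HA-Twi titration), 52 (Grh DBD), 50 (Grh DBD titration), 50 (Zld DBD) and 49 (Zld DBD titration), and 73 in the Twi list, which was within 1.5 times. These are 53.3% to 79.3% of the members, against 41.8% to 68.5% of all genes. Pair members present, out of 16, numbered 6 (Grh), 5 (Grh titration), 7 (Zld), 5 (Zld titration), 10 (Twi), 5 (HA-Twi titration), 4 (Grh DBD), 4 (Grh DBD titration), 4 (Zld DBD) and 3 (Zld DBD titration), which was 13 to 16 with the flanks. These are 18.8% to 62.5% of the 16, below the share of all genes in each list. The pair members are short, with a median length of 963 bp against 2161 bp over all genes. Shares by list for genes of the same length range are not given here. In all 10 lists, 2 of the 16 (12.5%) had a summit in the gene body, against 20.8% of genes of the same length range. A summit within 500 bp of the annotated start alone was not run, as strand was not used here.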
